A study of Mus musculus with 2 samples.

Results

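The Nodal and Activin pathway was described through 9 named genes: the ligand Nodal, its co-receptor Tdgf1, the receptors Acvr1b, Acvr2a and Acvr2b, the signal transducers Smad2 and Smad3, and the inhibitors Lefty1 and Lefty2. The genes were taken by their symbols as a named pathway, and all 9 were among the 22556 genes of the count table. Polyadenylated RNA was sequenced from iXist-ChrX-Dom cells, a female XX mouse embryonic stem (ES) cell line from a Dom/129S x Cast cross, in which a doxycycline-inducible TetOn promoter replaces the promoter of Xist on the Dom/129S allele. Both libraries came from the uninduced state (untreated, 0 h) and form 1 group with 2 replicates, so there was no contrast between conditions. The cells were grown in serum and LIF on mouse fibroblast feeders, which were removed by pre-plating, and both libraries carry the TetOn allele. The labels do not say whether the replicates were separate cultures, so differences between them may be technical.

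Nodal and the Activins are ligands of the TGF-beta family. They bind a complex of a type II receptor (Acvr2a or Acvr2b) and the type I receptor Acvr1b, also called ALK4, and Nodal in addition needs an EGF-CFC co-receptor such as Tdgf1, also called Cripto. The active receptor phosphorylates SMAD2 and SMAD3, which enter the nucleus with SMAD4 and switch on target genes with partners such as FOXH1. Nodal, Lefty1 and Lefty2 are themselves targets, and the secreted Lefty proteins block Nodal signalling, which makes a feedback loop. In the mouse embryo the pathway patterns the epiblast and the primitive streak, and its autocrine activity is known in mouse ES cells.

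Some of the 9 genes have close relatives, which matters for counts because a read pair from an identical stretch cannot be given to 1 gene. The counting command set no option to count reads with several places in the genome, so such pairs were left out of the counts. Lefty1 and Lefty2 are neighbours on chromosome 1, with 35935 bases between them. Their coding sequences were 92.3% identical, with 84 different bases among 1098 aligned, and the longest identical run was 140 bases. The stretch of 100 coding bases with the most differences lies in exon 1 and holds 30, shown here in capitals because reads from it separate the genes. It is at chr1:180935148-180935247 in Lefty1 and at chr1:180893222-180893321 in Lefty2, both on the plus strand of GRCm38 (mm10), in the GENCODE M21 transcripts.
Lefty1: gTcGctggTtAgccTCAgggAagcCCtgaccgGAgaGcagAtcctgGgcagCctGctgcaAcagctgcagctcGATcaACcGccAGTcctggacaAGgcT
Lefty2: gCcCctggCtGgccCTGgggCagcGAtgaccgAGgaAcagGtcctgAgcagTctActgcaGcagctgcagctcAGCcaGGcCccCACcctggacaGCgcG
Of all stretches of 50 bases in the Lefty1 transcript, 17.9% also occurred in Lefty2, and 11.6% of those in the Lefty2 transcript occurred in Lefty1. The share fell to 9.68% and 6.23% for stretches of 81 bases.

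Tdgf1 has pseudogenes. The coding sequence of Tdgf1 and the matching stretch of Tdgf1-ps1 on chromosome 16 were 98.6% identical, with 7 different bases among 513. The last 100 coding bases of Tdgf1, in exon 6 (chr9:110940707-110940806, minus strand), held 4 of these differences, marked in capitals. The pseudogene stretch is at chr16:3730923-3731022 on the plus strand.
Tdgf1: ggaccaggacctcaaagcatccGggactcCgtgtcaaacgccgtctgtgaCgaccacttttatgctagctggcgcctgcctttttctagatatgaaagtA
Tdgf1-ps1: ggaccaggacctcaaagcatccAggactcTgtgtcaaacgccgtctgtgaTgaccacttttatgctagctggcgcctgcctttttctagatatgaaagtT
Of the Tdgf1 transcript, 12.5% of stretches of 50 bases also occurred in Tdgf1-ps1, and 7.72% of stretches of 81 bases. Tdgf1-ps2 was further away, with 35 different bases among 494. The transcripts of Nodal, Acvr1b, Acvr2a, Acvr2b, Smad2 and Smad3 shared no stretch of 50 bases with another gene.

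The libraries held 23716499 and 20275749 counts. A level is given as TPM, that is, counts divided by the exonic length of the gene and scaled to a sum of 1000000 within the library. At this depth a gene without a count allows a level of up to 3 counts (a one-sided 95% limit for counting error), or 0.126 CPM (counts scaled to a library sum of 1000000) in replicate 1 and 0.148 CPM in replicate 2. In a bulk sample, fewer cells of a type and less RNA per cell cannot be told apart. Counts of list genes at 1 TPM or more use the mean of the replicates by exonic length. ES cell identity was checked with markers: 14 of 15 were at 1 TPM or more, with a median of 110 TPM, led by Zfp42 (847 TPM) and Nanog (774 TPM), and they summed to 3744 and 2709 TPM in replicates 1 and 2. The libraries differed in single markers, shown here by genes chosen after their values were seen: Pou5f1 stood at 110 and 17.3 TPM, Dppa5a at 627 and 79.7 TPM, Dppa4 at 197 and 75.7 TPM, and Esrrb at 102 and 46.0 TPM. The leading markers Zfp42 (807 and 886 TPM) and Nanog (799 and 749 TPM) differed less. Of 16 fibroblast markers 3 were at 1 TPM or more, led by Fbn1 and Col5a1 and summing to 9.05 and 5.25 TPM, and Lum had no count. Of 8 primitive endoderm markers 3 were at 1 TPM or more, led by Dab2 (12.2 TPM) and Gata4 and summing to 16.5 and 15.9 TPM, and Amn had no count. Of 9 neural precursor markers, Nes (3.80 TPM) alone reached 1 TPM, Pax6 came next, the sums were 5.33 and 4.36 TPM, and Sox1 and Olig2 were among those without a count, though Sox1 lies within Gm5607 on the same strand, where reads are ambiguous.

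All 9 genes were expressed, each at 1 TPM or more in both libraries, over a 538-fold range of mean level. Tdgf1 and Lefty2 stood far above the others and made up 94.0% of the summed TPM of the 9 genes in replicate 1 and 94.5% in replicate 2. The ligand, by contrast, was near the bottom. The median of the 9 was 39.4 TPM, against 18.4 TPM over the 12245 genes at 1 TPM or more, and 6 of the 9 lay above the latter. The median of the 9 was 43.6 TPM in replicate 1 and 22.1 TPM in replicate 2, and by the span of the genes with introns it was 17.4 TPM.

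**Figure D1:**
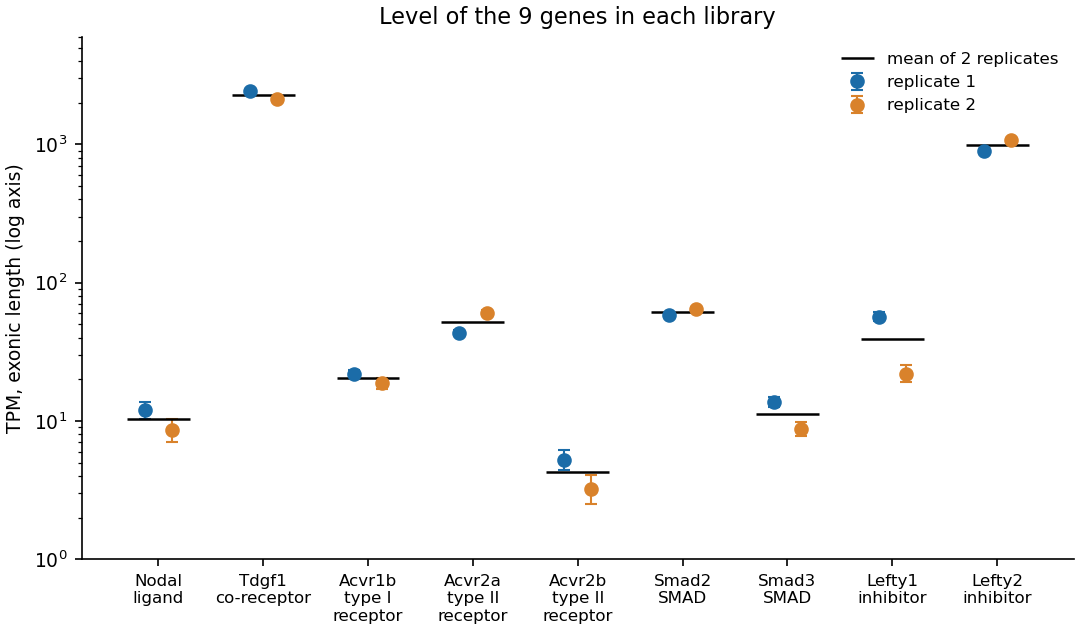
Level of the 9 genes in TPM by exonic length (log axis). Points are the 2 replicates and bars their mean. Tdgf1 (2284 TPM) and Lefty2 (983 TPM) lie above the remaining 7 genes, which reach at most 61.6 TPM, and the replicates of Lefty1 are the furthest apart.

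Nodal, the ligand, lies at chr10:61417971-61425337 on the plus strand. It had 188 counts in replicate 1 and 109 in replicate 2, or 11.9 and 8.61 TPM (10.3 ± 2.36, SD, n = 2). The exact Poisson 95% intervals, which cover counting error only, ran from 10.3 to 13.8 TPM and from 7.07 to 10.4 TPM, so they overlapped slightly. Nodal ranked 7468 of the 22133 genes with an exonic length.

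Tdgf1, the co-receptor, lies at chr9:110939607-110946158 on the minus strand. It had 35161 and 25050 counts, or 2422 and 2145 TPM (2284 ± 195, SD, n = 2). This was the 25th highest level of the 22133 genes. Within a library, Tdgf1 stood 203 and 249 times above Nodal.

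The type I receptor Acvr1b (chr15:101174124-101212601, plus strand) had 728 and 500 counts, or 21.9 and 18.7 TPM (20.3 ± 2.26, SD, n = 2). The type II receptor Acvr2a (chr2:48814108-48903264, plus strand) had 1863 and 2089 counts, or 43.6 and 60.8 TPM (52.2 ± 12.2, SD, n = 2). Its paralog Acvr2b (chr9:119402500-119433506, plus strand) was the lowest of the 9 genes, with 141 and 70 counts, or 5.25 and 3.24 TPM (4.25 ± 1.42, SD, n = 2). Acvr2a thus carried most of the type II receptor RNA. It stood 8.30 and 18.8 times above Acvr2b (13.5 ± 7.39, SD, n = 2), a ratio within each library that does not depend on the scaling between libraries. It was 7.49 by span length and 21.5 by CPM. The ratio between replicates followed GC content across genes, as described below. That trend in log2 was 0.26 for Acvr2a (39.9% GC) and -0.67 for Acvr2b (54.4% GC). Its part in the change from 8.30 to 18.8 was not tested. The sum of both type II receptors was 2.23 and 3.42 times the level of Acvr1b. Acvr2a overlaps Orc4 on the opposite strand by 512 bases, and the counting used strand, so reads of Orc4 there were not counted for Acvr2a.

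The transducers differed in level. Smad2 (chr18:76241700-76311747, plus strand) had 3799 and 3339 counts, or 58.8 and 64.3 TPM (61.6 ± 3.86, SD, n = 2). By TPM its replicates were the closest of the 9 genes in relative terms. With the TMM scaling described below, Tdgf1 (log2 ratio -0.007) and Acvr1b (-0.06) were closer than Smad2 (0.30). Smad3 (chr9:63646766-63757994, minus strand) had 527 and 270 counts, or 13.8 and 8.78 TPM (11.3 ± 3.54, SD, n = 2). Smad2 stood 4.27 and 7.32 times above Smad3 (5.80 ± 2.16, SD, n = 2). The size of this ratio depends on the gene length used, with a mean of 15.5 by span length and 9.79 without a length (CPM), while its direction does not. The GC trend described below was -0.05 in log2 for Smad2 and -0.61 for Smad3. Its part in the change of this ratio between replicates was not tested.

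The inhibitors were expressed far apart although they are neighbours. Lefty2 (chr1:180893118-180899102, plus strand) had 16529 and 16084 counts, or 889 and 1076 TPM (983 ± 132, SD, n = 2), rank 117 of 22133. Lefty1 (chr1:180935038-180938401, plus strand) had 690 and 216 counts, or 56.7 and 22.1 TPM (39.4 ± 24.5, SD, n = 2), rank 4269. Lefty2 was higher than Lefty1 in both libraries, by 15.7 times in replicate 1 and 48.8 times in replicate 2 (32.2 ± 23.4, SD, n = 2), so the direction held in both while the size did not. The mean ratio was 27.7 by span length and 49.2 by CPM. Read pairs that lie wholly in bases shared by both transcripts were left out, so the counts of both genes may be too low. The share of such stretches of 50 bases was larger in Lefty1 (17.9%) than in Lefty2 (11.6%). Its effect on their ratio was not tested. Both inhibitors together stood 79.2 and 128 times above Nodal (103 ± 34.2, SD, n = 2).

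By mean level the order was Tdgf1, Lefty2, Smad2, Acvr2a, Lefty1, Acvr1b, Smad3, Nodal and Acvr2b. Neighbours were taken as separate where the ranges of their replicates did not overlap. By that rule Smad2 and Acvr2a, Acvr2a and Lefty1, and Smad3 and Nodal could not be ordered. The largest step was from Lefty2 to Smad2, a 16.0-fold difference of means, and Tdgf1 stood 2.32-fold above Lefty2.

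The order depended in part on the gene length. The deposited length is the span of the gene with its introns, and by that length the compact genes moved up. Lefty1 rose from 39.4 to 97.6 ± 57.6 TPM and stood next after Lefty2, above Smad2 (39.4 ± 3.98) and Acvr2a (17.4 ± 4.70). Nodal stood at 15.1 ± 2.91 TPM, above Acvr1b (12.1 ± 0.887), whereas Smad3, whose introns are long, stood at 2.67 ± 0.739 TPM beside Acvr2b (2.53 ± 0.755). Tdgf1 (3501 ± 165) and Lefty2 (2120 ± 365) led by both lengths. All values here are SD over n = 2.

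**Figure D2:**
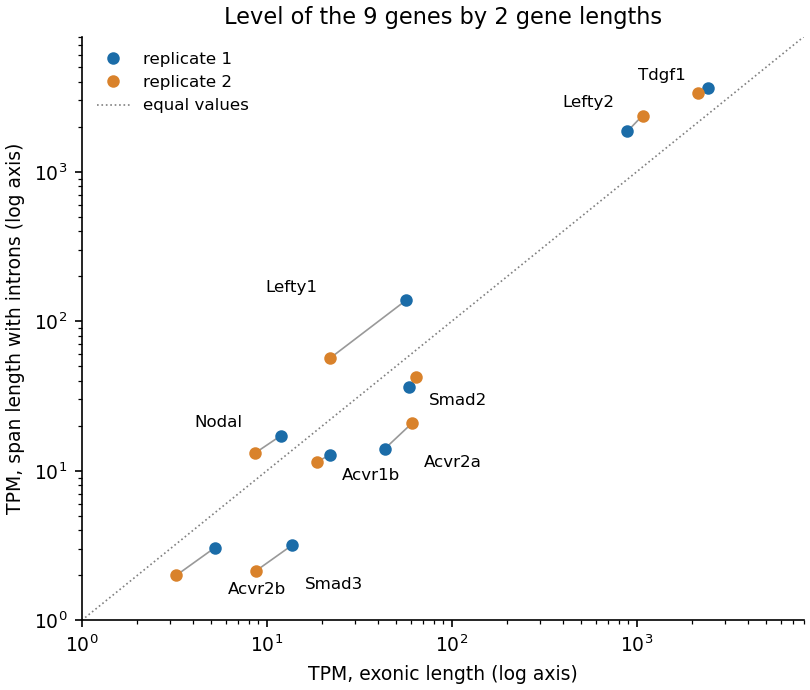
Level of each of the 9 genes by exonic length (x axis, TPM, log) and by span length with introns (y axis, TPM, log). Points are replicates, joined for each gene, and the dotted line marks equal values. Lefty1, Lefty2, Nodal and Tdgf1 lie above the line, and the receptors and SMADs lie below it.

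The replicates were then compared with each other. For every gene with 10 or more counts in total (14536 genes), a two-sided exact binomial test asked whether the split of its counts matched the library totals, and p-values were adjusted by Benjamini-Hochberg. The test compares these libraries, not conditions. Of the 9 genes, 8 differed at an adjusted p below 0.05, beside 60.8% of all genes tested. The test calls deep genes more often: among the 9021 genes with at least 211 counts in total, the lowest total of the 9, it called 74.2%. With library totals Acvr2a and Lefty2 were higher in replicate 2 and 6 genes were lower. Of all genes, 15.1% were higher and 45.7% were lower, and this split was more even with the other scalings given below. The median log2 ratio of the 9 genes (replicate 2 over replicate 1) was -0.32, against -0.31 over all genes tested, which is close to the shift of the whole library.

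Lefty1 differed most, with a log2 ratio of -1.45 (95% exact interval -1.68 to -1.23, adjusted p = 2.44e-42, exact binomial test). Acvr2b (-0.78), Smad3 (-0.74), Nodal (-0.56), Acvr1b (-0.32) and Tdgf1 (-0.26) followed, although Tdgf1 turned to the other side of 0 with DESeq2 size factors, and Nodal and Acvr1b did so with a GC trend. Acvr2a was higher by 0.39 (0.30 to 0.48, adjusted p = 1.06e-16, exact binomial test) and Lefty2 by 0.19 (0.16 to 0.22, adjusted p = 1.85e-30, exact binomial test). Smad2 did not pass, at 0.04 (-0.03 to 0.11, adjusted p = 0.316, exact binomial test), but it was higher in replicate 2 with TMM factors (0.30), DESeq2 size factors (0.35) and the GC trend (0.09), with adjusted p of 3.66e-17, 9e-24 and 0.0195 by the exact binomial test. Lefty1 and Lefty2 therefore moved apart between the replicates. Markers of ES cells moved between the same libraries: 12 of 15 were lower in replicate 2 (45.7% of all genes), 1 was higher (15.1% of all genes) and 2 did not pass, with log2 ratios of -3.06 for Dppa5a and -2.76 for Pou5f1, larger than that of Lefty1. Against the GC trend described next, 7 of the 15 were lower (21.7% of all genes) and 6 higher (22.9% of all genes), with -2.68 for Dppa5a and -1.99 for Pou5f1. The part of these marker differences in the ratio of Lefty1 was not tested.

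The ratio between replicates followed the GC content of the transcript across all genes. Over the 9687 genes that had 50 or more counts per library, Spearman's rho was -0.667 and a cubic trend took up an R² of 0.389, as a description across genes, which are not independent. Lefty1 has the highest GC content of the 9 (58.6%) and Acvr2a the lowest (39.9%). Against this trend, Lefty1 was still lower, by -0.67, and Lefty2 (51.5% GC) was higher by 0.70. With edgeR's trimmed mean of M-values (TMM) scaling, which moved all log2 ratios by 0.26, 6 of the 9 genes passed beside 57.7% of all genes, and Nodal (adjusted p = 0.134), Acvr1b (adjusted p = 0.58) and Tdgf1 (adjusted p = 0.662) did not, by the exact binomial test. With the GC trend 6 passed, beside 44.6%, and Nodal, Acvr2b and Smad3 did not. With TMM factors 3 of the 9 were higher in replicate 2 and 3 lower (28.8% and 28.9% of all genes). With DESeq2 size factors 4 were higher and 3 lower (31.6% and 26.1% of all genes). Against the GC trend 4 were higher and 2 lower (22.9% and 21.7% of all genes). Acvr2a and Lefty2 were higher and Lefty1 lower, each past the threshold, with library totals, TMM, DESeq2 size factors and the GC trend. The part of GC content in the differences was not tested.

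**Figure D3:**
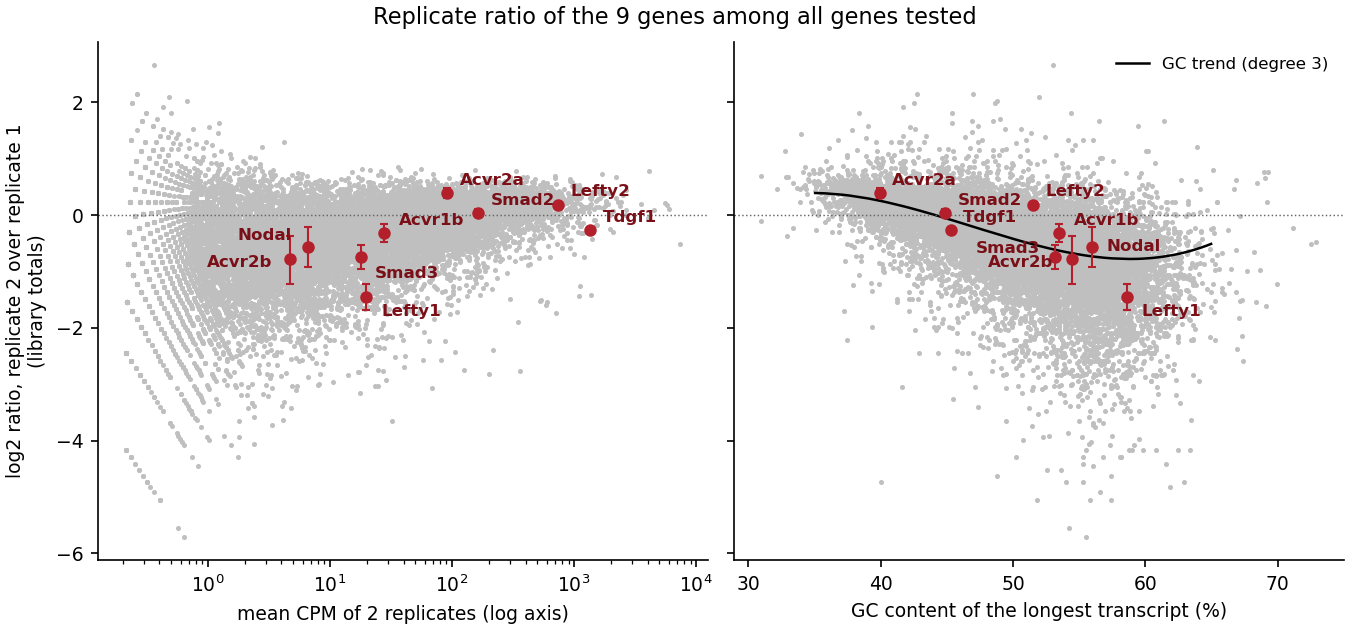
log2 ratio of replicate 2 to replicate 1 with library totals, against mean CPM (left, log axis) and GC content of the longest transcript (right, %). Grey points are all genes tested, red points the 9 genes with 95% exact intervals, and the line is the GC trend. Lefty1 (-1.45) lies lowest of the 9, and Acvr2a and Lefty2 lie above 0.

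The other genes of the pathway were taken from lists by role, 53 genes in all. Of these, 31 were at 1 TPM or more by their mean, 28 in both libraries, and 5 had no count (Gdf1, Mstn, Cer1, Gsc and Lhx1). Between the replicates 39 could be tested: 7 were higher in replicate 2, 14 were lower and 18 did not pass, with a median log2 ratio of -0.20. The called share was 53.8%, near the 60.8% of all genes tested, and the difference of these shares was not tested. Gdf1 lies almost wholly within Cers1 on the same strand, where reads are ambiguous and were left out, and Cers1 had no count either.

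Of 12 ligands, 2 reached 1 TPM by exonic length, Gdf3, a Nodal-like ligand, and Nodal. By span length 4 did, with Inhbb at 3.04 TPM and Gdf11, named for this count, at 1.60 TPM. Gdf3 had 612 and 219 counts, or 38.3 and 17.1 TPM (27.7 ± 15.0, SD, n = 2), above Nodal in both libraries. Inhbb, the beta B subunit of Activin, followed with 0.932 ± 0.0531 TPM by exonic length. Among the convertases that cleave the Nodal precursor, Pcsk6 stood at 18.7 ± 4.59 TPM, above Pcsk5 (1.19 ± 0.0337) and Furin (0.848 ± 0.449). Of the other co-receptors, Tgfbr3 stood at 3.07 ± 0.162 TPM and Cfc1, the second EGF-CFC gene, had 8 and 5 counts, so Tdgf1 was the main EGF-CFC co-receptor in RNA level.

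Among receptors, Tgfbr1 (ALK5, the type I receptor of TGF-beta) stood highest at 118 ± 30.7 TPM. Its type II partner Tgfbr2 was chosen after its values were seen and stood at 1.04 ± 0.159 TPM. Acvr1c (ALK7), also chosen after its values were seen, had 4 and 1 counts, so of the type I receptors for Nodal and Activin only Acvr1b reached 1 TPM. Besides the Lefty genes, the highest extracellular or membrane inhibitor was Bambi, a pseudoreceptor, at 10.5 ± 0.669 TPM. Cer1, a secreted Nodal antagonist, had no count.

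All 6 SMADs and partners listed were at 1 TPM or more by their mean, and 5 in both libraries. Smad4, the common SMAD, stood at 151 ± 35.5 TPM and Trim33, a cofactor of SMAD2 and SMAD3, at 129 ± 27.3 TPM, both above Smad2 by exonic length. By span length the replicates of Smad4 (35.3 and 52.1 TPM) and Smad2 (36.6 and 42.2 TPM) overlapped. Foxh1 was named after its values were seen because it partners the SMADs at Nodal targets. It fell below 1 TPM in replicate 2, with 69 counts (6.73 TPM) in replicate 1 and 3 counts (0.364 TPM) in replicate 2. The exact interval of its log2 ratio ran from -6.61 to -2.69 (adjusted p = 1.23e-14, exact binomial test), and the ratio was -4.09 with library totals and -3.31 against the GC trend (adjusted p = 2.12e-08, exact binomial test). Of 14 intracellular inhibitors, 14 were at 1 TPM or more by their mean and 13 in both libraries, led by Skil (187 ± 43.3 TPM), Tgif1 (163 ± 21.6 TPM) and Smurf2 (108 ± 12.6 TPM). Skil and Tgif1 are SMAD corepressors and Smurf2 a ubiquitin ligase. The exception was Drap1, with 18 and 4 counts, or 2.12 and 0.587 TPM. The list also holds Rnf111 (Arkadia), named, as was Drap1, after its values were seen, which promotes signalling by degrading Skil, at 78.9 ± 14.2 TPM.

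Targets were split by kind. All 7 feedback and general targets were at 1 TPM or more, among them the 3 genes Nodal, Lefty1 and Lefty2, with Lefty2 and Skil at the top. Of 8 targets of the primitive streak and endoderm, 2 reached 1 TPM, Eomes (12.6 ± 2.39) and T (4.59 ± 1.69). Sox17 stood at 0.445 ± 0.170 TPM, and Gsc and Lhx1 had no count. By span length 3 of the 8 reached 1 TPM. RNA levels in 1 state do not show how active the pathway was.

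**Figure D4:**
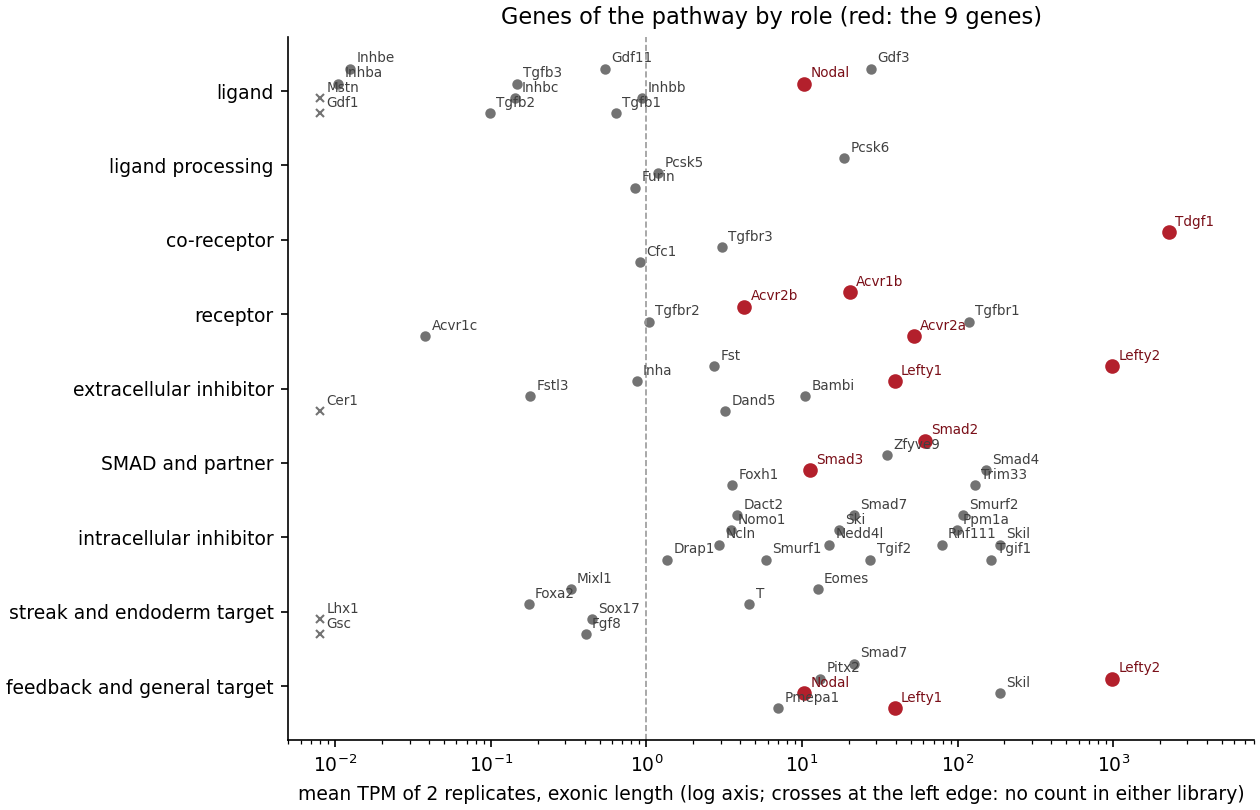
Mean level of the genes of each role over 2 replicates (TPM by exonic length, log axis), with the 9 genes in red and genes without a count as crosses at the left edge. The dashed line is 1 TPM. Tdgf1 (2284 TPM) and Lefty2 (983 TPM) stand furthest to the right, while 2 of 12 ligands lie above the line.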

How the data were processed

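Polyadenylated RNA of 2 libraries of 1 group was analysed from a table of gene counts that the authors deposited. The counts are read pairs per gene, whole numbers and not normalized. The file header names featureCounts 1.5.2 with reverse-strand counting over whole transcripts, introns included, and the submitters' processing notes name Bowtie2 2.3.2, STAR 2.4.2a and build mm10, without their roles. The deposited length column is the genomic span of each gene, so TPM by exonic length includes intronic reads in the numerator. Column names lack a letter "b" of the sample descriptions and were matched by clone and replicate.

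TPM used the union of exons of GENCODE M21 basic (GRCm38), matched for 98.1% of genes by symbol or older symbol. Positions are those of the count table, whose starts lay 1 base below RefSeq for 12335 of 21161 genes compared. Libraries were compared with exact binomial tests, and with edgeR 4.0.16 TMM factors, DESeq2 1.42.0 size factors, a GC trend and other filters on low counts as alternatives (R 4.3.3, Python 3.11.15, scipy 1.17.1). The binomial test was tested on simulated counts with Poisson noise alone, which is the noise it assumes, so spread between replicates was not covered. With 2 libraries of 1 group no dispersion model was fitted. Intervals cover counting error only. The named genes were the 9 members, the 3 highest genes of each role list with any gene without a count, and the 2 highest genes of each marker list. Gdf11, Tgfbr2, Acvr1c, Foxh1, Drap1, Rnf111, further ES cell markers and markers without a count were named in addition, after their values were seen. The members, lists and rules were chosen with earlier results of these data known.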

Additional observations from a re-analysis of the deposited data

How the results depend on the processing

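The 26 results were recomputed under 117 alternatives. Of these, 82 kept direction and side of the threshold or moved within the replicate spread, and 22 moved further. A further 7 lost the call, 3 gained it and 3 turned sign. Leaving out 1 of 2 replicates always stays within their SD, so single levels and ratios could not count as moved by it. Filters on low counts cannot change a log2 ratio between replicates. The CPM alternatives of levels set CPM against TPM, which are different units, so those moves do not measure a change in level. By span length the median level of the 9 genes was 17.4 TPM, the ratio of Smad2 to Smad3 was 15.5 and that of Lefty1 plus Lefty2 to Nodal 151. By CPM the ratio of Acvr2a to Acvr2b was 21.5 and that of Smad2 to Smad3 was 9.79. Leaving out replicate 1 gave a median of 22.1 TPM and a Lefty2 to Lefty1 ratio of 48.8. Leaving out replicate 2 gave 43.6 TPM and a ratio of 15.7. The log2 ratio between replicates turned sign for Nodal (0.17) and Acvr1b (0.31) with the GC trend, and for Tdgf1 (0.049) with DESeq2 size factors. The cause of these changes was not tested. By span length, a setting added for the lists after seeing the data, the markers at 1 TPM or more were 15 of 15 for ES cells and 1 each for fibroblasts, primitive endoderm and neural precursors. At 5 TPM or more, 8 of the 9 genes were counted. The count of all genes that differed in either direction stayed within 1.5 times under every scaling and filter tried, but the directions did not keep their split. Genes lower in replicate 2 fell from 6640 with library totals to 4203 (TMM), 3797 (DESeq2) and 3124 (GC trend). Genes higher in replicate 2 rose from 2202 to 4187, 4598 and 3291 in the same order. No paired analysis was possible because both libraries belong to 1 group. Depth limits Acvr2b and Nodal most, and 2 replicates give an SD of low precision.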
